A study of Mus musculus with 6 samples.

Results

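A set of 10 genes whose mutation gives polycystic kidneys or livers were read out in whole kidneys of newborn mice in which Notch2 signalling had been switched on in the tubules: Pkd1, Pkd2, Pkhd1, Dzip1l, Ganab, Prkcsh, Dnajb11, Sec63, Glis3 and Bicc1. They were picked by symbol, and all 10 had a row among the 23669 gene rows of the deposited table, of which 19659 held expression values. The 3 samples of R26NICD2/+ Kspcre mice (called NICD2 here) came from kidneys at postnatal day 3, as did the 3 wild type samples. R26NICD2 places the intracellular domain of Notch2, the fragment a receptor releases when it is activated, at the Rosa26 locus, and Kspcre is a Cre recombinase driven by the promoter of Ksp-cadherin (Cdh16), active in kidney tubule epithelium, so only part of the cells in each sample can carry the active allele. The labels call the controls wild type and do not say whether they carried either allele alone. The title of the series gives its subject as Notch2 activation in kidney cyst growth.

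Polycystin-1 (Pkd1) is a large receptor-like membrane protein, and polycystin-2 (Pkd2) is a cation channel of the TRP family. They assemble with each other and act in the primary cilium, the sensory process on the lumen side of tubule cells, and loss of either causes the dominant form of human polycystic kidney disease. Fibrocystin (Pkhd1) is a membrane protein of cilia and apical vesicles whose loss causes the recessive form, and Dzip1l, a protein of the ciliary base and transition zone, is the gene of a second recessive form. Ganab, Prkcsh, Dnajb11 and Sec63 act in the endoplasmic reticulum (ER), where polycystin-1 is translocated, glycosylated and folded, Glis3 is a zinc finger transcription factor, and Bicc1 is an RNA-binding protein whose mouse mutants have polycystic kidneys.

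Pkhd1 and Dzip1l were higher in NICD2 kidneys, by 1.44 and 1.52 times in mean FPKM, and their libraries did not overlap between genotypes. The other 8 genes, Pkd1 and Pkd2 among them, were not called. FPKM are fragments scaled to transcript length and to the fragments mapped in a library, and the genotypes were compared with limma on log2(FPKM + 1) across 13765 genes, with a Benjamini-Hochberg adjusted p under 0.05 as the threshold. All 10 genes passed the filter on low values. Of them 2 were called higher, where 4.93% of all tested genes were, and 0 lower, where 3.86% were (8.79% in either direction). Without adjustment, too, only Pkhd1 and Dzip1l of the 10 had p under 0.05, where 25.1% of all tested genes did. The median log2 fold change of the 10 genes was -0.01, beside -0.01 over all 13765 genes.

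The promoters of the 2 genes that rose are shown because letters bound by known regulators of the Notch and ER stress pathways were looked for in them. The windows run from 250 bases before to 50 bases after the annotated start and are RefSeq sequence on GRCm38.p6, given 5′ to 3′ on the gene's strand. Capitals mark TGGGAA, which the Dzip1l window holds and the Pkhd1 window does not, the core letters bound by RBPJ, the DNA-binding partner of the Notch intracellular domain. The Pkhd1 window is chr1:20618008-20618307 (minus strand), and the Dzip1l window is chr9:99629281-99629580 (plus strand).
Pkhd1: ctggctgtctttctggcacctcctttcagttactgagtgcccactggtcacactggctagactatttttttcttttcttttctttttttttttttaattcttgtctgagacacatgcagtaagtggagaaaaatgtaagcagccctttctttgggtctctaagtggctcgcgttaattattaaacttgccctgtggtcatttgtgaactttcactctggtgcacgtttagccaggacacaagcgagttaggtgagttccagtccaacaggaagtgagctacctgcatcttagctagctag
Dzip1l: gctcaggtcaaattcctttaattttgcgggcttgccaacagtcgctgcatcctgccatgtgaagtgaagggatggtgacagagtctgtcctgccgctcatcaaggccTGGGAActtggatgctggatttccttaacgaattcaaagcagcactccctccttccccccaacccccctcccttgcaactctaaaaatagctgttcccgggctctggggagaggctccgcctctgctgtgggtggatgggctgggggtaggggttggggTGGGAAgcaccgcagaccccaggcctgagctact

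TGGGAA, searched on both strands, was present in 25.6% of 32851 promoter windows of the same length. Of the disease genes, 9 had a window, and 3 of these genes held it, in 4 of the 10 windows. Dzip1l held it at positions -143 and 16 from the start in the window shown. Its second annotated window, which overlaps the first, covers the same letters, at positions -190 and -31 from the second start. Sec63 held TGGGAA at position -149, and Dnajb11 held its reverse complement at position -120. Sec63 and Dnajb11 were not called, and Pkhd1, which rose, did not hold the letters. The ER stress element, CCAAT and CCACG separated by 9 bases, was in none of the 9 and in 0.119% of all windows. A match describes the letters of a window and shows no binding. Bicc1 was not among the windows.

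The allele was checked first. The row the table names for human Notch2 stood at 75.4, 79.6 and 60.2 FPKM in NICD2 libraries, against 0, 0.03 and 0.03 FPKM in wild type libraries, whereas endogenous Notch2 averaged 17.3 ± 0.835 FPKM in NICD2 and 17.0 ± 1.48 FPKM in wild type (SD, n = 3 each). Each library held an estimated 16550000 to 17350000 fragments, from the spacing of low FPKM. Some libraries stood apart. The summed FPKM of 9 adrenal genes was 2.12 in NICD2 replicate 1 and 5.21 in wild type replicate 3, and 195 to 206 in the other 4 libraries, and the Y-linked genes Uty, Kdm5d, Ddx3y and Eif2s3y were listed at 0 in NICD2 replicate 3 alone. In every other library they stood at 4.56 to 41.5 FPKM, so sex was not balanced between the genotypes. Results are given below without the libraries that stood apart where a call changed. In whole kidneys a lower or higher value cannot tell fewer or more cells of a type apart from less or more RNA per cell.

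**Figure D1:**
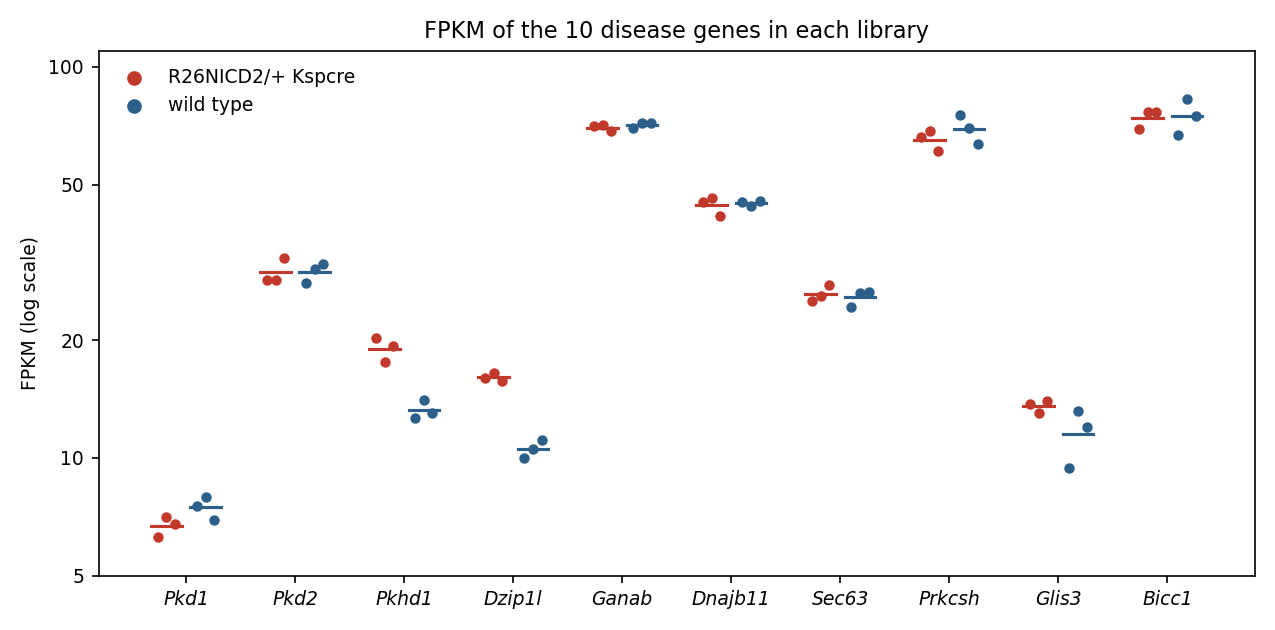
FPKM of the 10 disease genes on a log axis, with 1 point per library, R26NICD2/+ Kspcre left of wild type, and a bar at each group's mean (n = 3 each). Pkhd1 and Dzip1l are the genes whose NICD2 points all lie above the wild type points, and the points of the other 8 genes overlap.

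Among the polycystins and fibrocystin, Pkhd1 (gene 241035, chromosome 1, 20057779 to 20618082, minus strand, GRCm38) stood at 20.2, 17.6 and 19.4 FPKM in the NICD2 libraries, against 12.7, 14.1 and 13.0 FPKM in the wild type libraries. All NICD2 libraries were above all wild type libraries, with the lowest NICD2 value at 17.6 and the highest wild type value at 14.1 FPKM. The log2 fold change of FPKM + 1 was 0.49 ± 0.08 (SE; limma adjusted p = 0.00545), which with its 95% interval corresponds to 1.25 to 1.58 times. Leaving out both libraries low in adrenal genes, NICD2 replicate 1 and wild type replicate 3, gave 0.44 ± 0.10 and an adjusted p of 0.0627, with 4 libraries left, and a term for these libraries over all 6 gave an adjusted p of 0.00888. An annotated antisense gene, 4930486I03Rik, shares 1.45% of the exon bases of Pkhd1, and no source used here states whether strand was used in the counting.

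Pkd1 (gene 18763, chromosome 17, 24549950 to 24596514) was the lowest of the 10 genes in FPKM, at 6.29, 7.08 and 6.77 in NICD2 libraries, against 7.54, 7.95 and 6.94 in wild type libraries. The ranges overlapped only between 6.94 and 7.08 FPKM, and the log2 fold change was -0.14 ± 0.08 (adjusted p = 0.331), with an interval of 0.803 to 1.03 times. The overlap of its exons with those of the neighbouring Tsc2 on the opposite strand is 3.98% of the Pkd1 exon bases. Tsc2 is a growth inhibitor of the mTOR pathway and is named here, after its values were seen, for this overlap. It averaged 19.9 ± 0.881 FPKM in NICD2 and 21.8 ± 1.24 FPKM in wild type and was not called (log2 fold change -0.12, adjusted p = 0.304).

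Pkd2 (gene 18764, chromosome 5, 104453995 to 104505819) had 28.5, 28.6 and 32.5 FPKM in NICD2 libraries, against 28.1, 30.5 and 31.3 FPKM in wild type libraries. The groups covered nearly the same range, and the interval of the fold change ran from 0.885 to 1.12 times (adjusted p = 0.973). Ratios within a library put the members beside each other, since they do not depend on the scaling between libraries. The ratio of Pkd2 to Pkd1 FPKM was 4.45 ± 0.386 in NICD2 and 4.02 ± 0.429 in wild type (two-sided exact permutation p = 0.200). The ratio of Pkhd1 to Pkd2 was 0.711, 0.614 and 0.596 in the NICD2 libraries, against 0.450, 0.462 and 0.416 in the wild type libraries (exact permutation p = 0.1, adjusted to 0.144 over the 13 ratios computed). With 3 samples against 3 the smallest p such a test can give is 0.1, so no ratio could pass the threshold. The Pkhd1 to Pkd2 ratio did not overlap between the genotypes.

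At the ciliary base, Dzip1l (gene 72507, chromosome 9, 99629501 to 99670075, plus strand) stood at 15.99, 16.53 and 15.72 FPKM in NICD2 libraries, against 10, 10.56 and 11.1 FPKM in wild type libraries. It had the greatest fold change of the 10 genes, a log2 fold change of 0.56 ± 0.07 (adjusted p = 0.00132), or 1.33 to 1.64 times by its interval. The groups lay far apart compared with their spread, with SDs of 0.412 FPKM in NICD2 and 0.550 FPKM in wild type. By log2 fold change Dzip1l ranked 396 and Pkhd1 ranked 495 among the 13765 genes tested, both above the 95th percentile of 0.39. Of all tested genes 30.5% had groups that did not overlap, against 2 of these 10.

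**Figure D2:**
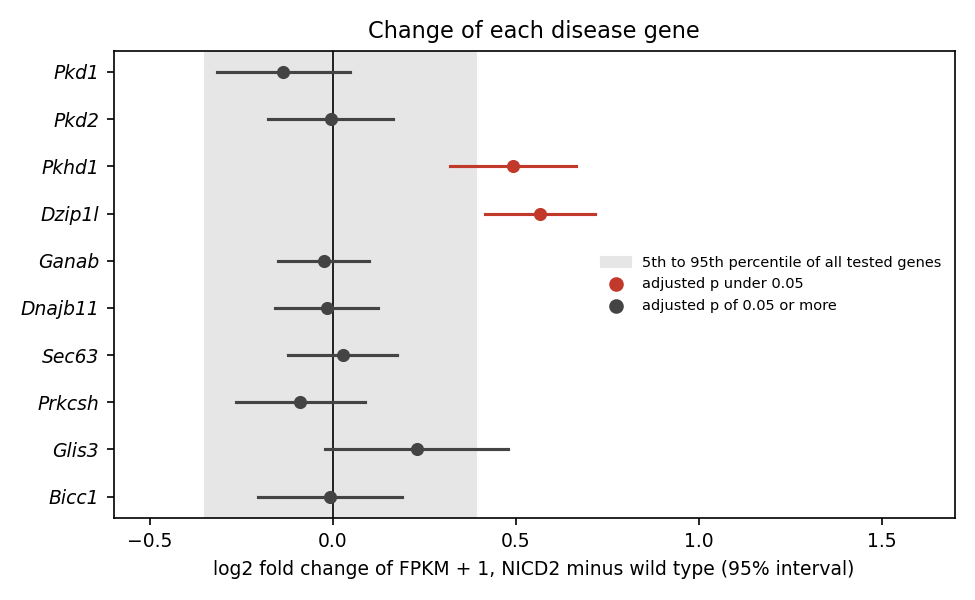
Log2 fold change of FPKM + 1, NICD2 minus wild type, of each gene with its 95% interval from limma (all 6 libraries); the grey band spans the 5th to 95th percentile of all 13765 tested genes, -0.35 to 0.39. The points of Pkhd1 and Dzip1l lie to the right of the band, and the intervals of the other 8 genes include 0.

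None of the 4 ER genes passed the test, and all were above the median level of the genes tested. Ganab and Prkcsh encode the catalytic and the regulatory subunit of glucosidase II, which trims glucose from newly made glycoproteins. Ganab (gene 14376, chromosome 19) had 70.6, 70.9 and 68.5 FPKM in NICD2 libraries, against 69.9, 72.0 and 71.8 FPKM in wild type libraries. This was the narrowest interval of the 10, from 0.902 to 1.07 times (adjusted p = 0.818). Prkcsh (gene 19089, chromosome 9) had 66.1, 68.4 and 61.0 FPKM in NICD2 libraries, against 75.1, 69.6 and 63.7 FPKM in wild type libraries (0.831 to 1.06 times, adjusted p = 0.526). Values of Prkcsh were spread more widely within wild type than the group means were apart. The ratio of Ganab to Prkcsh was 1.08 ± 0.0438 in NICD2 and 1.03 ± 0.0989 in wild type (exact permutation p = 0.600), so the FPKM of the subunits stood close to each other in both genotypes.

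Dnajb11 (gene 67838, chromosome 16), a co-chaperone of the ER chaperone BiP, had 45.2, 46.1 and 41.7 FPKM in NICD2 libraries, against 45.2, 44.0 and 45.4 FPKM in wild type libraries. Sec63 (gene 140740, chromosome 10), which helps proteins through the Sec61 channel into the ER, had 25.3, 25.9 and 27.6 FPKM in NICD2 libraries, against 24.4, 26.4 and 26.6 FPKM in wild type libraries. Both genes overlapped between genotypes, with intervals of 0.896 to 1.09 times for Dnajb11 and 0.918 to 1.13 times for Sec63 (adjusted p = 0.895 and 0.847). A rise of the size seen in Pkhd1 or Dzip1l lies outside the intervals of all 4 ER genes.

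The wider ER list held 28 genes of translocation, N-glycosylation and folding, and none was called in either direction by limma, while 7 had an unadjusted p under 0.05, all of them higher in NICD2; over all genes tested 25.1% had such a p, in either direction. Their median log2 fold change was 0.08, beside -0.01 over all genes tested, and 10 of the 28 had groups that did not overlap, where 30.5% of all tested genes did. The 3 most abundant were the chaperone Calr at 432 ± 19.4 FPKM in NICD2 and 424 ± 11.8 FPKM in wild type, Hsp90b1 at 281 ± 9.78 FPKM in NICD2 and 251 ± 23.2 FPKM in wild type, and the disulfide isomerase Pdia3 at 268 ± 13.4 FPKM in NICD2 and 245 ± 3.91 FPKM in wild type. Named after their values were seen, Sec61b, a subunit of the Sec61 channel, averaged 114 ± 5.72 FPKM in NICD2 and 94.8 ± 7.25 FPKM in wild type (adjusted p = 0.0653, and 0.0399 without wild type replicate 1, where it was the single gene of the list called), and Stt3a, a catalytic subunit of oligosaccharyltransferase, 64.2 ± 1.90 FPKM in NICD2 and 54.1 ± 3.997 FPKM in wild type (adjusted p = 0.0654). Alg8 and Alg9, also named after their values were seen, are glycosyltransferases whose human genes are also mutated in cystic kidney and liver disease, and had log2 fold changes of 0.11 and 0.06 (adjusted p = 0.520 and 0.645).

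Of the regulators, Glis3 (gene 226075, chromosome 19) had 13.7, 13.0 and 14.0 FPKM in NICD2 libraries, against 9.44, 13.2 and 12.0 FPKM in wild type libraries. NICD2 libraries lay close together, while wild type replicate 1 was low and wild type replicate 2 was above the lowest NICD2 library. The log2 fold change was 0.23 ± 0.11 (adjusted p = 0.238), and its interval of 0.986 to 1.39 times was the widest of the 10 and nearly reached the rise of Pkhd1. Bicc1 (gene 83675, chromosome 10) had the highest FPKM of the 10 genes, at 69.3, 76.6 and 76.7 in NICD2 libraries, against 66.8, 82.6 and 75.1 in wild type libraries. All NICD2 values lay within the wild type range (0.867 to 1.14 times, adjusted p = 0.966). An antisense gene, 4930533K18Rik, shares 4.69% of the Bicc1 exon bases.

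The order of the FPKM levels, which are per transcript length, was nearly the same in both genotypes. In NICD2 kidneys it ran Bicc1, Ganab, Prkcsh, Dnajb11, Pkd2, Sec63, Pkhd1, Dzip1l, Glis3 and Pkd1, and of these neighbours only Bicc1 and Ganab overlapped. In wild type kidneys Glis3 stood above Dzip1l. There the libraries of Bicc1 and Ganab, of Ganab and Prkcsh, of Pkhd1 and Glis3, and of Glis3 and Dzip1l overlapped. Pkd1 had 29 transcripts in the table, and no source used here states which of them its FPKM was scaled to, so its place at the bottom depends on the length the authors used.

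A second list held 20 other cystic kidney genes and partners of the 10 genes, of which 1 rose and 3 fell, and the median of its log2 fold changes was -0.14. Over all tested genes 4.93% were called higher and 3.86% lower. Of the 20 genes, 10 had an unadjusted limma p under 0.05, where 25.1% of all tested genes did. Groups did not overlap for 11 of them, where 30.5% of all tested genes had such groups. Umod, the urinary protein of the thick ascending limb whose human mutations cause tubulointerstitial kidney disease, rose and averaged 337 ± 33.6 FPKM in NICD2 and 114 ± 5.54 FPKM in wild type (log2 fold change 1.55, adjusted p = 2.20e-05). Adcy6, an adenylyl cyclase that makes the cAMP of cyst fluid secretion and whose mRNA mouse Bicc1 binds, fell, with 25.1 ± 0.381 FPKM in NICD2 and 35.4 ± 1.36 FPKM in wild type (log2 fold change -0.48, adjusted p = 0.00171). Pax2, a transcription factor of the nephron and collecting duct lineages, and Flcn, the folliculin gene mutated in Birt-Hogg-Dubé syndrome, also fell. Pax2 averaged 32.4 ± 2.39 FPKM in NICD2 and 44.4 ± 3.84 FPKM in wild type (adjusted p = 0.0125), and Flcn 8.18 ± 0.391 FPKM in NICD2 and 10.2 ± 0.291 FPKM in wild type (adjusted p = 0.0359). Flcn lost its call whichever library was left out, NICD2 or wild type, with adjusted p of 0.0567 (without NICD2 replicate 3) to 0.114 (without NICD2 replicate 1), and 2 genes of the list then fell.

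Pax8 and Glis2, transcription factors of the same list, were not called and had log2 fold changes of -0.16 and -0.21 (adjusted p = 0.291 and 0.0827). Among genes related by family or only by name to the polycystins, fibrocystin and Dzip1l, 8 of the 9 listed had values. Only Dzip1 and Dzip3 were expressed enough to be tested. Dzip1, the paralog of Dzip1l, averaged 10.04 ± 0.757 FPKM in NICD2 and 11.4 ± 0.153 FPKM in wild type (log2 fold change -0.17, adjusted p = 0.196), and Dzip3 had a log2 fold change of -0.09 (adjusted p = 0.637). Pkdrej averaged 0.510 ± 0.122 FPKM in NICD2 and 0.177 ± 0.0289 FPKM in wild type and was too low for the test. With no filter on low values it was called (log2 fold change of FPKM + 1 0.36 ± 0.07, adjusted p = 0.0329).

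**Figure D3:**
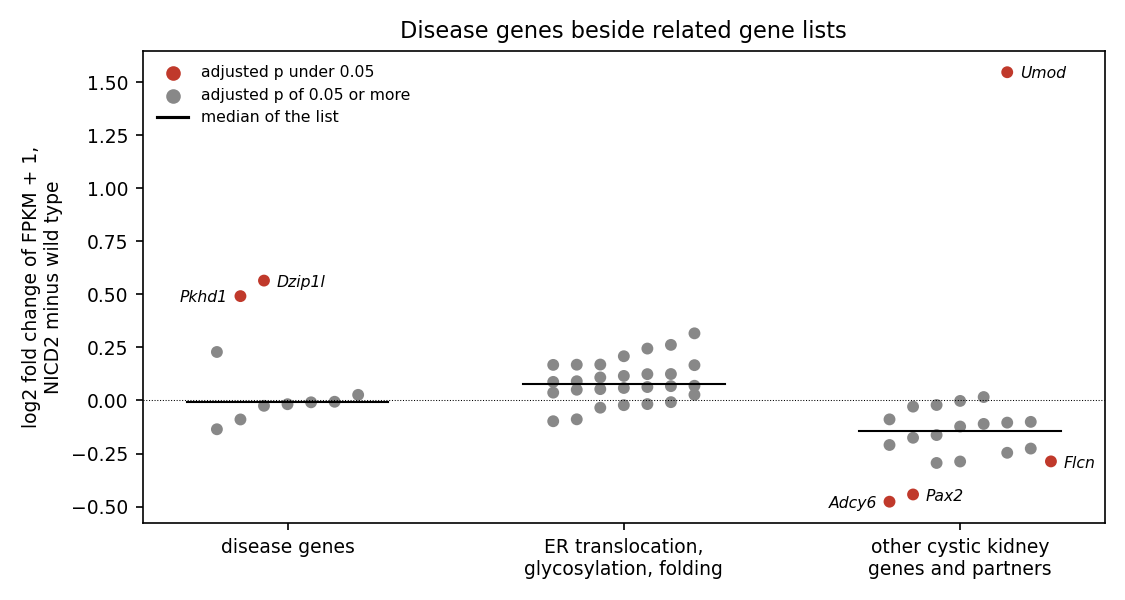
Log2 fold change of FPKM + 1, NICD2 minus wild type, of the 10 disease genes, the 28 ER genes and the 20 other cystic kidney genes and partners, with 1 point per gene and a line at each list's median. Called genes are in red and named: Pkhd1 and Dzip1l, none of the ER genes, and Umod, Adcy6, Pax2 and Flcn.

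Markers of kidney cell types moved in the same samples as Pkhd1 and Dzip1l. Of 5 genes of tubule epithelium at large, 3 rose and none fell, where 4.93% of all tested genes were called higher and 3.86% lower. Their summed FPKM was 780 to 922 in NICD2 libraries, against 602 to 629 in wild type libraries. The genes that rose were Krt8, averaging 197 ± 26.5 FPKM in NICD2 and 91.4 ± 5.31 FPKM in wild type (log2 fold change 1.09, adjusted p = 3.86e-04), Krt18 (1.15, adjusted p = 9.51e-04) and Cdh1 (0.67, adjusted p = 0.00497). Krt8 and Krt18 are keratins of simple epithelia, and Cdh1 is E-cadherin. Most of the higher sum lay in these keratins, with Krt18 averaging 175 FPKM in NICD2 and 77.8 FPKM in wild type. The mean of Cdh16, given below, was lower in NICD2, so the sum was not a rise of every gene listed. Epcam, an adhesion molecule, averaged 131 ± 11.7 FPKM in NICD2 and 112 ± 4.80 FPKM in wild type and was not called (adjusted p = 0.118), nor was Cdh16, at 236 ± 19.6 FPKM in NICD2 and 274 ± 20.1 FPKM in wild type (adjusted p = 0.164). The ratios of Pkhd1 and Dzip1l to these 5 genes, chosen after the values were seen, did not all go one way. Pkhd1 relative to Epcam was 0.146 ± 0.00486 in NICD2 and 0.119 ± 0.01004 in wild type, and relative to Cdh16 it was 0.0806 ± 0.00210 in NICD2 and 0.0484 ± 0.000862 in wild type. Relative to Krt8 it was lower in NICD2, at 0.0979 ± 0.0162 in NICD2 and 0.146 ± 0.0152 in wild type, and relative to Krt18 it was 0.111 ± 0.0187 in NICD2 and 0.172 ± 0.0248 in wild type. Relative to Cdh1 it was 0.201 ± 0.0107 in NICD2 and 0.224 ± 0.0176 in wild type, where the genotypes overlapped (exact permutation p = 0.200). The Dzip1l ratios went the same ways, with NICD2 over wild type at 1.31 for Epcam, 1.77 for Cdh16, 0.711 for Krt8, 0.684 for Krt18 and 0.955 for Cdh1 (exact permutation p = 0.600 for Cdh1). The 8 ratios to Epcam, Cdh16, Krt8 and Krt18 did not overlap between genotypes (exact permutation p = 0.1 for each, the smallest possible).

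Markers of single segments did not all move one way. The counts below stand beside 4.93% of all tested genes called higher and 3.86% called lower. Intercalated cell genes had 7 of 8 lower, and summed to 42.5 to 50.4 FPKM in NICD2 against 161 to 165 FPKM in wild type. Principal cell genes had 5 of 8 lower and 1 higher, at 201 to 242 FPKM in NICD2 against 375 to 403 FPKM in wild type. Thick ascending limb genes had 2 of 6 higher, one of them Umod, and 1 lower. They summed to 512 to 641 FPKM in NICD2 against 359 to 400 FPKM in wild type. Umod alone averaged 337 FPKM in NICD2 and 114 FPKM in wild type. The list's median log2 fold change was -0.22, so the higher sum was not a rise of the list as a whole. Proximal tubule genes had 2 of 8 lower, at 574 to 673 FPKM in NICD2 against 758 to 830 FPKM in wild type. Slc34a1, the most abundant of them, averaged 245 FPKM in NICD2 and 378 FPKM in wild type, and the list's median log2 fold change was -0.11. Podocyte genes had 5 of 6 lower, at 252 to 268 FPKM in NICD2 against 343 to 381 FPKM in wild type, and endothelial genes 2 of 6 lower, at 197 to 219 FPKM in NICD2 against 244 to 269 FPKM in wild type. Of 5 stromal, 6 immune and 9 adrenal genes limma called none (2, 0 and 0 had an unadjusted p under 0.05), and their sums overlapped between the genotypes. The adrenal genes were low in NICD2 replicate 1 and wild type replicate 3, with SEs of 0.79 to 1.75 (log2). Their missing calls and overlapping sums therefore cannot tell whether the genotypes differed. Leaving out 1 library changed some of these counts: 1 endothelial gene was lower without NICD2 replicate 1 or 2 or wild type replicate 2 or 3, 1 proximal gene without any one library other than NICD2 replicate 3, and 3 proximal genes without that one. Thick ascending limb genes had 2 lower without NICD2 replicate 3, and stromal genes then had 1 lower. Intercalated genes had 5 lower without any one wild type library and 8 lower without NICD2 replicate 1 or 3. Principal cell genes had 6 lower without NICD2 replicate 1. No gene of these lists was at 0 in every library. What part these cell types have in the values of Pkhd1 and Dzip1l was not tested.

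The genes nearest in profile were found as those with the smallest root mean square difference of log2(FPKM + 1) over the 6 libraries, each gene centred on its own mean. They were picked from the same values that were tested, so their calls follow from the choice and are no separate result. For Pkhd1 they were Rab11fip1, an effector of the recycling-endosome protein Rab11 (difference 0.0404), and Sh3gl2, an endophilin (0.0450). For Dzip1l they were Shmt1, a serine hydroxymethyltransferase (0.0247), and Bcl2, a survival gene whose loss gives cystic kidneys in mice (0.0264). Bcl2 averaged 13.6 FPKM in NICD2 and 8.64 FPKM in wild type, and Rab11fip1 6.76 FPKM in NICD2 and 4.40 FPKM in wild type, and both were called (adjusted p = 0.00140 and 0.00737), Rab11fip1 not so without both libraries low in adrenal genes (0.0672). Pkd1 was nearest to Pcdhga12 and Vash2, and Pkd2 to Sucla2 and Ostm1. Ganab was nearest to Klhdc2 and Mta2, Dnajb11 to Ube2l3 and Hsd17b12, Sec63 to Hspa12a and Snx4, Prkcsh to Dvl1 and Emc10, Glis3 to Fndc3b and Fras1, and Bicc1 to Slc7a4 and Mtg1, and none of the genes nearest to these 8 was called.

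**Figure D4:**
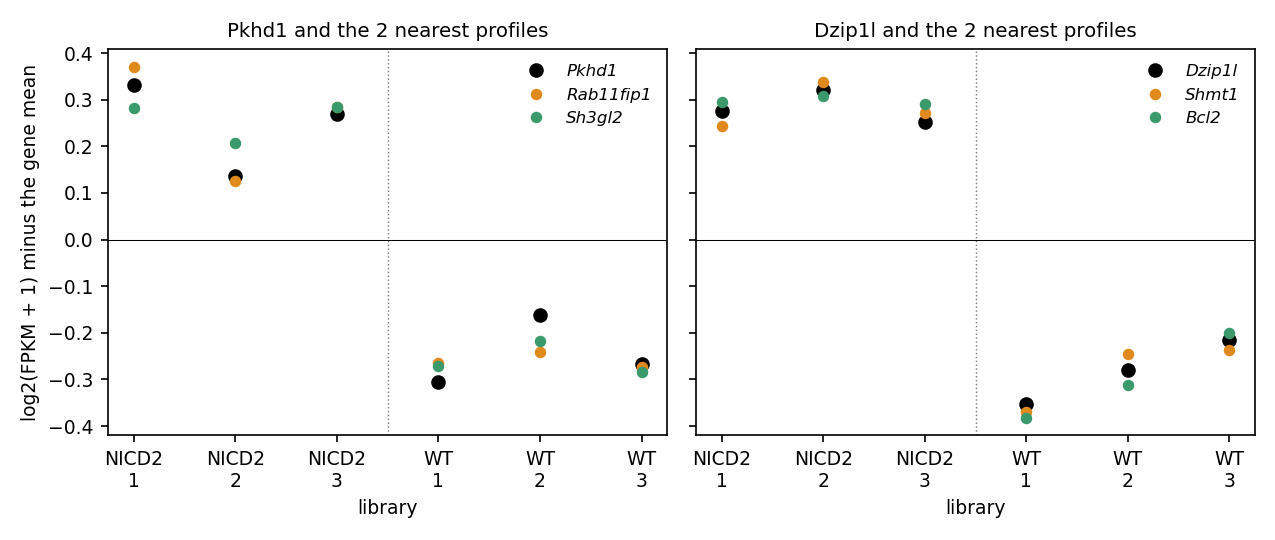
Log2(FPKM + 1) of Pkhd1 (left) and Dzip1l (right) in each library minus the gene's mean over the 6 libraries, with the 2 genes of nearest profile. In NICD2 replicate 2 Pkhd1 and its neighbours lie lower than in the other NICD2 libraries, which Dzip1l and its neighbours do not.

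The authors' deposited table gives a DEGseq comparison of the same samples, which calls far more genes: 48.9% of 18725 genes have a q under 0.05. In the authors' deposited table, q was under 0.05 for 5 of the 10 disease genes, namely Dzip1l (log2 fold change 0.60, q = 2.08e-65), Pkhd1 (0.55, q = 5.10e-72), Glis3 (0.24, q = 1.10e-14), Pkd1 (-0.15, q = 3.00e-07) and Prkcsh (-0.09, q = 5.89e-04). Of these, Glis3, Pkd1 and Prkcsh were not called by limma, and their libraries overlapped between genotypes. The signs are those of NICD2 over wild type, since the authors' group means for the genes order the same way.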

How the data were processed

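Kidney RNA had been extracted with Trizol and libraries made with an Illumina TruSeq kit, per the labels' protocols. The deposited table holds FPKM per gene and sample made by the authors, with their group means, and, per the file headers, log2 fold changes, p-values and q-values of the authors' DEGseq comparison plus transcript lengths, another deposited column. Bowtie 0.12.2 and mm8 are named in the submitters' processing notes. The chromosome accessions of the table are those of GRCm38, on which coordinates are given. No source used here names the program behind the FPKM. The 27 columns comparing single samples were not used, nor were 4010 rows with no FPKM.

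Testing was limited to genes reaching 1 FPKM in 3 or more libraries and used limma 3.58.1 (R 4.3.3) on log2(FPKM + 1), with a mean-variance trend, over all 6 libraries. Fold changes are NICD2 minus wild type on that scale, which understates changes of low genes. On simulated data over 13596 genes with the spread of this comparison, 64.0% of genes changed by 0.5 and 95.0% of those changed by 1 (log2) were recovered, and 5.92% of calls were false. Nothing in the labels states that replicates were separate animals, so p-values measure only the spread of these samples, part of which may be technical. The Y-linked genes show only that NICD2 replicate 3 was not from the same animal as NICD2 replicates 1 and 2. Depth was estimated over genes with 1 transcript, with 73.5% to 77.3% of low values lying 0.15 fragments or less from a whole number. The depth, and an offset of 130 bases taken off transcript length, were chosen to make this share highest. Chance gives 30.0% for a depth fixed beforehand, and was not computed for a depth chosen this way. With the estimated depth, the member with the fewest fragments in a library, Dzip1l, had about 1040 on its longest transcript, a counting error of 3.11%. Exon overlaps are from GENCODE vM21, and Python 3.11.15 with pandas 2.3.3 and scipy 1.17.1 did the rest.

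Members and gene lists were chosen with earlier results of these data known. The rule for named genes was all 10 members and the 2 nearest profiles of each. To these it added up to 6 called genes of each pathway list with the 3 most abundant others, and the 2 most abundant of each marker list. Other names are stated as chosen later, and of the markers only those set beside a member or a list's sum are named. A gene of the cystic kidney list that the rule would name, and a promoter motif, are not reported here. The alternatives were a pseudocount of 0.1, no filter, a filter of 5 FPKM, 2 scalings, the replicate block, no trend, robust moderation and leaving out libraries. Replicate numbers were not taken to pair the samples.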

Additional observations from a re-analysis of the deposited data

How the results depend on the processing

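Over 17 fits Dzip1l was called in every one, with log2 fold changes of 0.53 to 0.60 and adjusted p up to 0.0143. Pkhd1 was called in 16 of them, at 0.44 to 0.55. The fit that lost it left out both libraries low in adrenal genes, a choice made after seeing the data (adjusted p = 0.0627). That fit left 4 libraries, called 1 of the 10 genes higher and 0 lower, and called 469 genes in all, where the full comparison called 1210. No other gene of the 10 was called in any fit. The size and sign of the small changes were less fixed, with Glis3 at 0.10 to 0.32, Pkd1 at -0.18 to -0.10 and Bicc1 at -0.09 to 0.06. Leaving out 1 library at a time gave 603 to 955 called genes, the lowest of them without wild type replicate 2. Omitting NICD2 replicate 1 gave 666, NICD2 replicate 2 gave 773 and wild type replicate 3 gave 753, with 2 of the 10 genes higher and 0 lower each time. The other settings gave 894 (no filter) to 1383 (robust moderation). With the replicate block 1055 genes were called, and Pkhd1 and Dzip1l among them. The block left Flcn without a call (adjusted p = 0.0618), gave 1 lower gene among the endothelial and 1 among the proximal tubule markers, and 2 higher among the immune ones. Without both libraries low in adrenal genes 3 podocyte, 1 endothelial and 0 proximal tubule genes were lower, and 1 thick ascending limb gene was higher. Umod, Adcy6 and Pax2 kept their calls in every fit. Flcn was called in 8 of the 17 fits, and with no filter it was not (limma adjusted p = 0.0603). The cystic kidney list had 4 lower genes, where the full comparison had 3, with upper-quartile scaling, robust moderation or the term for adrenal genes. The deviations of samples with the same number correlated at -0.03, 0.06 and -0.05, so the numbers were not taken to pair the samples. Between samples of different number the correlations ran from -0.25 to 0.25. The highest was between NICD2 replicate 1 and wild type replicate 3, the libraries low in adrenal genes. NICD2 replicate 3 with wild type replicate 2 had 0.24, and NICD2 replicate 2 with wild type replicate 1 had 0.21. Scaling moved the median log2 change of all genes to -0.02 at most (upper quartile). Changes within the intervals given for the 8 genes not called could not be resolved with 3 samples per genotype.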
